A study of Homo sapiens with 8 samples.

Results

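The genes described here are 40 genes of the NF-kB pathway and its transcriptional output, IL32 among them, out of 78691 genes in the deposited count table. They were selected by gene name, by a rule that uses no measured value, though earlier results of these data were known, and each of the 40 names matched a single entry of that table. RNA was sequenced from 2 prostate cancer cell lines in which the level of MYCL, the gene for the transcription factor L-MYC, had been changed in opposite directions. C4-2B is a castration-resistant prostate adenocarcinoma line. Its control cells carried an empty lentiviral vector, and its MYCL cells carried a lentiviral vector in which the EF1A promoter drove human MYCL with EGFP joined through a self-cleaving peptide. Transduced C4-2B cells were enriched with puromycin or by sorting on fluorescence. NCI-H660 is a neuroendocrine prostate cancer line, and its cells received either a non-targeting shRNA (shCtrl) or shRNA against MYCL (shMYCL). The series' design text names an adenoviral vector for the knockdown, whereas the sample labels describe a stable knockdown, and the labels do not say which shRNA was used. There were 4 groups with 2 libraries each. Virus, vector and cell line therefore cannot be told apart in any comparison between the lines, and p-values rest on the spread between libraries, which may be partly technical. Within C4-2B, MYCL was delivered joined to EGFP, and effects of EGFP, vector or selection were not tested apart from those of MYCL.

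NF-kB is a family of dimeric transcription factors built from the products of NFKB1, NFKB2, REL, RELA and RELB. In resting cells the dimers are held in the cytoplasm by IkB proteins, and signals from TNF family receptors, interleukin-1 receptors and Toll-like receptors free them through kinase complexes assembled on ubiquitin chains. Among the genes that the dimers turn on are chemokines, cytokines, adhesion molecules and several of the pathway's own inhibitors, so that many members of the pathway are also its targets.

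Library totals lay between 15177071 and 32344170 counts, and the share of mitochondrial genes was 9.63% to 10.7% for C4-2B but at most 3.83% for NCI-H660. MYCL itself measured 12.0 and 14.2 CPM (counts relative to library size, scaled by the TMM method over all 8 libraries) in C4-2B control, and 3727 and 4237 CPM in C4-2B MYCL. In NCI-H660 it measured 104 and 81.7 CPM with shCtrl and 10.3 and 12.0 CPM with shMYCL. Overexpression raised MYCL by a log2 fold change of 8.26 and knockdown changed it by a log2 fold change of -3.06, so the labels and the targeted gene pointed the same way in all 8 libraries. The 6 luminal prostate markers summed to between 2861 and 3743 CPM in C4-2B, whereas the 6 neuroendocrine markers summed to between 905 and 1507 CPM in NCI-H660. Of the 8 leukocyte markers, the defining gene PTPRC had 1 count in 1 shMYCL library and 0 counts in the others. The leukocyte sum was between 12.1 and 15.2 CPM in C4-2B control, between 35.5 and 39.98 CPM in C4-2B MYCL, nearly all of it CD68, and between 1.84 and 3.43 CPM in NCI-H660. The 6 fibroblast markers summed to between 11.5 and 13.9 CPM in C4-2B control and between 20.1 and 20.9 CPM in C4-2B MYCL. In NCI-H660 they summed to between 108 and 111 CPM with shCtrl and between 69.2 and 74.8 CPM with shMYCL. Most of this was COL1A2, at 101 and 98.8 CPM with shCtrl and 64.3 and 60.7 CPM with shMYCL. COL1A1 measured 7.94 and 7.34 CPM with shCtrl and 9.85 and 7.56 CPM with shMYCL. LUM had 26 and 34 counts with shCtrl and 11 and 15 counts with shMYCL, lower after knockdown as COL1A2 was. COL3A1, DCN and PDGFRB had 0 counts in NCI-H660. The 4 endothelial markers summed to between 2.84 and 10.2 CPM over all libraries. The part of these marker genes in the results below was not tested. In bulk RNA, fewer cells with a transcript and less of it per cell cannot be told apart.

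Because the dimers bind a short sequence known as the kappa B motif, the 250 bases before the start site of each gene were searched for its consensus on both strands in RefSeq promoters (GRCh38.p14). A promoter sequence was given for 32 of the 40 genes, and 12 of these 32 (37.5%) held at least 1 match, beside 1828 of 35116 promoters (5.21%) in the whole table. Overlapping matches were counted as 1. The genes were picked for their known tie to the pathway, so this share describes the choice of genes. Of the 20 genes that changed in at least 1 cell line in the tests below, 16 had a promoter sequence and 9 of these 16 held a match. The match nearest the start site is shown for these 9, with the matched bases in capitals and 30 bases in all, read along the strand of the gene.
IL32 (chr16:3065295-3065324, plus strand): ctgtactcaGGGAGTTTCCCcagccagctg
CCL20 (chr2:227813753-227813782, plus strand): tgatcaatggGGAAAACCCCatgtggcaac
CXCL2 (chr4:74099253-74099282, minus strand): tggagctccGGGAATTTCCCtggcccggga
CXCL3 (chr4:74038748-74038777, minus strand): tggagctccGGGAATTTCCCtggcccggcc
BIRC3 (chr11:102317339-102317368, plus strand): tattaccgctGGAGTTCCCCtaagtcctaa
TNFAIP3 (chr6:137867194-137867223, plus strand): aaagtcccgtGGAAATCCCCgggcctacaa
NFKBIZ (chr3:101827757-101827786, plus strand): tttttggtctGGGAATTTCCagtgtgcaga
NFKB1 (chr4:102501300-102501329, plus strand): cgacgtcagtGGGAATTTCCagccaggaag
REL (chr2:60881518-60881547, plus strand): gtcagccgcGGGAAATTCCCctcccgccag

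The matched bases were identical in CXCL2 and CXCL3, and the matches began 78 and 79 bases before their start sites. The match of IL32 began 99 bases before its start site, that of CCL20 79 bases, and that of NFKB1 49 bases. A match is a description of the sequence and not a measured binding site. The other 3 genes with a match were CXCL1 and IL6, which had too few counts to test, and NFKBIA, which was called in neither line.

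The genes spanned the whole range of expression. Compared per transcript length (TPM), the most abundant in C4-2B control were SAT1 at 135 ± 7.80 TPM (SD, n = 2), NFKBIA at 54.7 ± 0.0713 TPM and TNFRSF10B at 41.6 ± 2.48 TPM. In NCI-H660 shCtrl the most abundant were SAT1 at 477 ± 47.3 TPM, CXCL8 at 437 ± 26.3 TPM and NFKBIA at 217 ± 9.95 TPM. SAT1 catabolizes polyamines, NFKBIA is the IkB-alpha inhibitor, and CXCL8 is the neutrophil chemokine interleukin-8. CXCL8 was thus among the most abundant of the 40 transcripts in NCI-H660 and had no count in either C4-2B control library. At the other end, 5 genes had too few counts to be tested in either line: CXCL1, CCL2, IL6, IL1A and IL1B. CXCL1 had 0 counts throughout, a result that up to 3 counts per library could still give. IL6 had 0 counts in the 4 C4-2B libraries and at most 2 in an NCI-H660 library, IL1B at most 4 counts, CCL2 at most 6 and IL1A at most 8. Another 5 genes could be tested only in NCI-H660, namely CXCL2, CXCL3, CXCL8, PTGS2 and TRAF1, and CCL20 and IER3 only in C4-2B. The remaining 28 were tested in both.

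**Figure D1:**
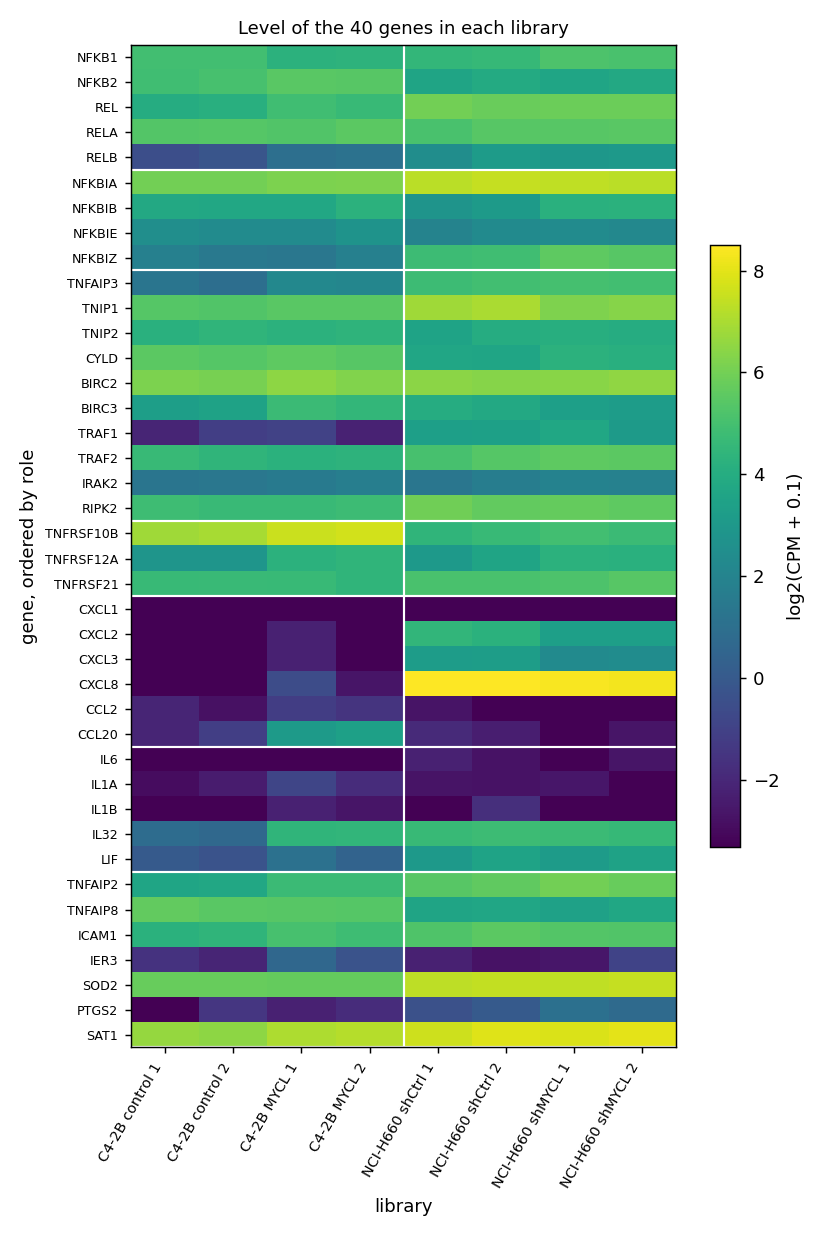
Level of each of the 40 genes (vertical axis, ordered by role) in each of the 8 libraries (horizontal axis), colored by log2(CPM + 0.1). CXCL2, CXCL3 and CXCL8 are near the floor in the 4 C4-2B libraries and high in NCI-H660, while IL32 and CCL20 are low in C4-2B control and higher in C4-2B MYCL.

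MYCL overexpression in C4-2B was compared with the empty vector to ask which of these genes move when MYCL is raised in adenocarcinoma cells. The quasi-likelihood test of edgeR was used, with p-values adjusted over all genes by the method of Benjamini and Hochberg, and a gene was called when its adjusted p was under 0.05 and its log2 fold change at least 0.5 in size. By this test 13 of the 30 tested genes rose and 1 fell. Of all 16866 genes tested, 11.8% rose and 8.12% fell. The median log2 fold change was 0.30 over the 30 genes and -0.0017 over all genes. The rises ran from the inhibitor of apoptosis BIRC3 and the death receptor TNFRSF10B to IL32 and the chemokine CCL20, which showed the steepest changes. Tested by limma on log2(TPM + 1), a scale on which the median of all genes stood at -0.14, 6 genes rose and 1 fell. On that scale REL (0.32), NFKB2 (0.35), ICAM1 (0.43) and SAT1 (0.43) were no longer called, and RELB, TNFAIP3 and IER3 did not pass the filter on low TPM.

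MYCL knockdown in NCI-H660 asked the reverse question in neuroendocrine cells. Of 33 tested genes, 5 rose and 4 fell, beside 7.18% and 8.99% of all 16980 genes tested, and the median log2 fold change was 0.10 beside -0.0029 over all genes. The rises were NFKB1, the IkB genes NFKBIB and NFKBIZ, the deubiquitinase CYLD and the receptor TNFRSF12A. The falls were the chemokines CXCL2 and CXCL3, BIRC3 and the A20-binding protein TNIP1. On log2(TPM + 1) values without a filter, limma called 1 gene of the whole table and 0 of these 9. With the filter on low TPM, limma did not call BIRC3 or CYLD on either log2(TPM + 1) or log2(TPM + 0.1). Of the 28 genes tested in both lines, only NFKB1, BIRC3 and TNFRSF12A were called in both, and 20 genes were called in at least 1. The matching shares of all genes were not counted, so these overlaps describe only the listed genes. NFKB1 moved against MYCL in both lines, BIRC3 moved with MYCL in both, and TNFRSF12A rose in both.

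**Figure D2:**
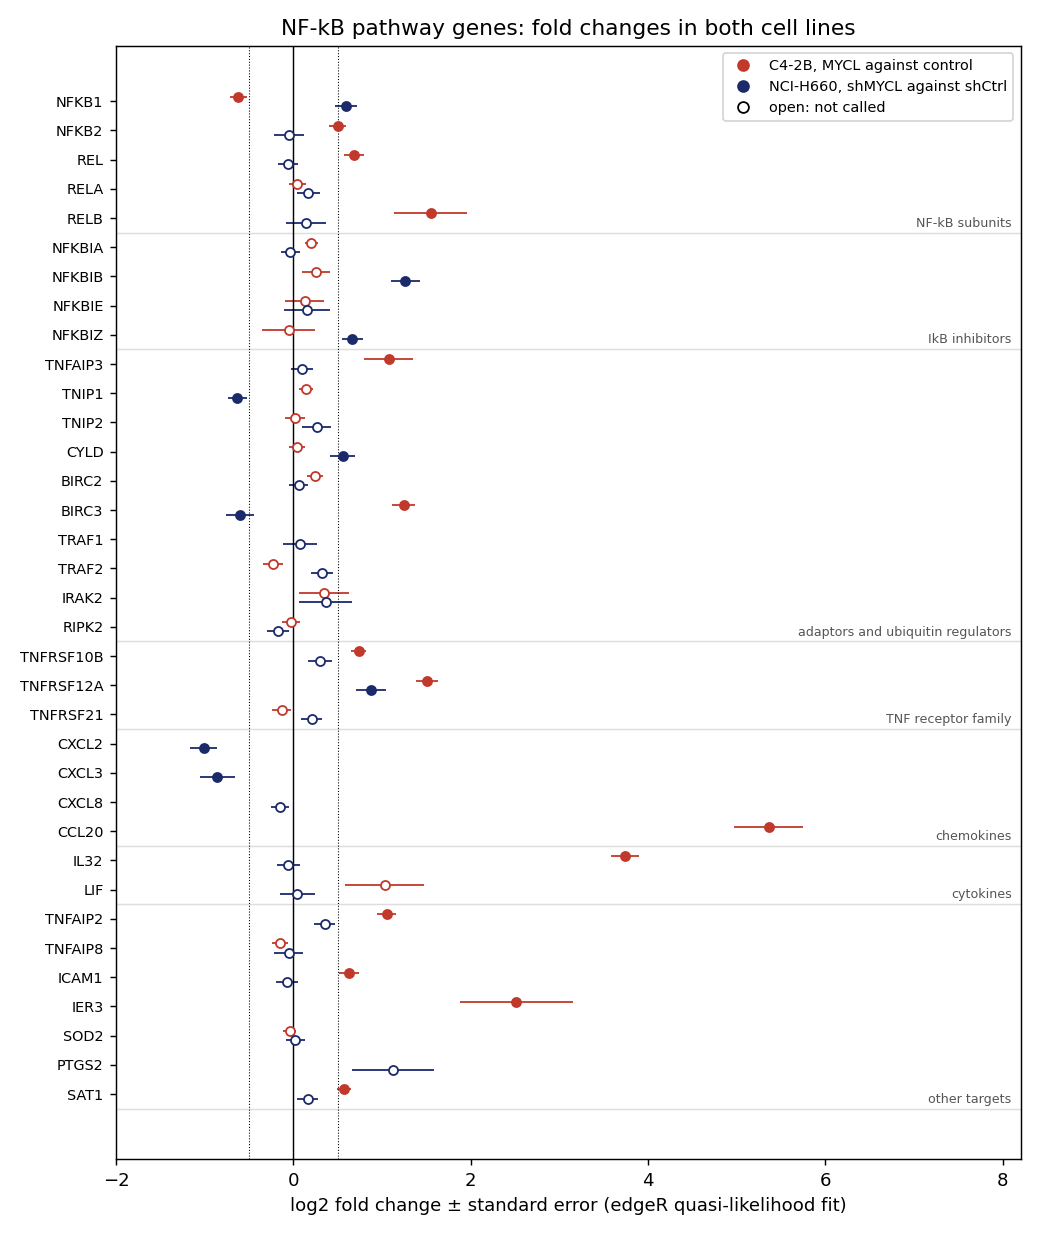
Log2 fold change with its standard error (horizontal axis) for each tested gene (vertical axis, grouped by role) in C4-2B MYCL against control (red) and NCI-H660 shMYCL against shCtrl (blue), with open circles for genes that were not called and dotted lines at the fold minimum. CCL20 and IL32 stand farthest to the right in C4-2B, at 5.36 and 3.74, whereas CXCL2 stands farthest to the left in NCI-H660, at -1.01.

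Among the 5 NF-kB subunits, 3 rose and 1 fell in C4-2B with MYCL. NFKB1, which encodes p105 and its product p50, measured 30.1 and 30.2 CPM in control and 19.3 and 19.7 CPM with MYCL. Its log2 fold change was -0.62 ± 0.09 (SE, adjusted p = 0.0012 by edgeR's quasi-likelihood test). In NCI-H660 it measured 22.6 and 23.9 CPM with shCtrl and 36.3 and 34.0 CPM with shMYCL, a log2 fold change of 0.59 ± 0.12 (edgeR adjusted p = 0.00255). NFKB1 was thus lower in the MYCL-high group of each line, with no overlap between the groups in either.

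REL, which encodes the transactivating subunit c-Rel, rose from 16.01 and 17.7 CPM to 29.0 and 24.8 CPM in C4-2B with MYCL (log2 fold change 0.68 ± 0.12, edgeR adjusted p = 0.00216). In NCI-H660 it was higher than in any C4-2B library, at 63.3 and 56.2 CPM with shCtrl and 57.6 and 57.0 CPM with shMYCL, and did not pass the test after knockdown (-0.06 ± 0.11). Of the exon bases of REL, 33.3% are shared with a long noncoding RNA on the same strand, so its reads cannot be assigned with certainty. RELB, the partner of p52 in the noncanonical pathway, rose from 0.617 and 0.754 CPM (19 and 17 counts) to 1.88 and 2.11 CPM (33 and 35 counts), a log2 fold change of 1.55 ± 0.41 (edgeR adjusted p = 0.0183). That call was lost without C4-2B control library 1, at 1.39, and without MYCL library 2, at 1.46. NCI-H660 held 5.53 and 8.77 CPM of RELB with shCtrl and 7.60 and 8.23 CPM with shMYCL, and these groups overlapped.

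NFKB2, which encodes p100 and its product p52, measured 29.1 and 33.1 CPM in C4-2B control and 44.7 and 42.7 CPM with MYCL. Its log2 fold change of 0.50 ± 0.10 (edgeR adjusted p = 0.00384) sat at the fold minimum, and it fell below it without control library 1 (0.40) or MYCL library 1 (0.47). NFKB2 was not called under 7 of 13 alternatives, among them no filter on low counts and all 4 groups in one fit. In NCI-H660, NFKB2 ranged from 11.8 to 15.1 CPM over the 4 libraries, with no call. RELA, the p65 subunit of the classical dimer, was called in neither line. It ranged from 34.5 to 45.2 CPM over all 8 libraries, with log2 fold changes of 0.04 ± 0.09 in C4-2B and 0.17 ± 0.13 in NCI-H660.

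Of the 4 IkB genes, 0 were called in C4-2B (1 at an unadjusted p under 0.05) and 2 rose in NCI-H660. NFKBIB (IkB-beta) measured 6.76 and 8.46 CPM with shCtrl and 18.2 and 18.5 CPM with shMYCL, a log2 fold change of 1.26 ± 0.16 (edgeR adjusted p = 6.03e-05). In C4-2B it stood at 14.1 and 13.5 CPM in control and at 13.7 and 19.2 CPM with MYCL, and the groups overlapped. NFKBIZ, which encodes the nuclear cofactor IkB-zeta, rose from 27.6 and 29.0 CPM to 46.9 and 42.9 CPM after knockdown (0.66 ± 0.12, edgeR adjusted p = 0.000905). It was far lower in C4-2B, between 2.45 and 3.44 CPM over the 4 libraries. NFKBIA, whose product is resynthesized when NF-kB is active, had log2 fold changes of 0.20 ± 0.08 in C4-2B and -0.04 ± 0.11 in NCI-H660, and NFKBIE (IkB-epsilon) had 0.13 ± 0.22 and 0.15 ± 0.26.

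Of the 10 adaptors and ubiquitin regulators, 9 were tested in C4-2B, where 2 rose, and all 10 in NCI-H660, where 1 rose and 2 fell. BIRC3, the ubiquitin ligase cIAP2 recruited to TNF receptors, rose from 9.77 and 11.0 CPM to 26.2 and 22.6 CPM with MYCL in C4-2B. Its log2 fold change was 1.24 ± 0.13 (edgeR adjusted p = 0.000184) and both MYCL libraries lay above both controls. After knockdown in NCI-H660 it went from 15.7 and 13.8 CPM to 10.2 and 9.26 CPM, a log2 fold change of -0.60 ± 0.16 (edgeR adjusted p = 0.0124), which was no longer called without shMYCL library 2 (-0.53). Its close relative BIRC2 (cIAP1) was not called in either line, at 0.24 and 0.06.

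TNFAIP3 encodes A20, the ubiquitin-editing enzyme that shuts the pathway down. It measured 2.34 and 1.82 CPM in C4-2B control and 4.55 and 4.22 CPM with MYCL, a log2 fold change of 1.07 ± 0.28 (edgeR adjusted p = 0.0161) that rested on 41 to 80 counts per library and was not called without control library 2 (0.91). In NCI-H660 the TNFAIP3 transcript was more abundant, between 27.5 and 31.8 CPM, and was not called after knockdown (0.10 ± 0.12). TNIP1, which encodes a partner of A20, fell from 113 and 126 CPM with shCtrl to 73.8 and 80.5 CPM with shMYCL (-0.63 ± 0.11, edgeR adjusted p = 0.000639). TNIP1 stood between 39.6 and 44.6 CPM in the 4 C4-2B libraries, where it was not called. CYLD, which removes ubiquitin chains from pathway adaptors, rose in NCI-H660 from 12.8 and 12.3 CPM to 19.5 and 17.4 CPM (0.55 ± 0.14, edgeR adjusted p = 0.0108) and was not called without shMYCL library 1 (0.48). The kinase RIPK2, the adaptors TRAF1 and TRAF2, the kinase-like adaptor IRAK2 and the A20-binding TNIP2 were called in neither line, with log2 fold changes between -0.24 and 0.36. TRAF1 had at most 8 counts in a C4-2B library and between 140 and 209 counts in NCI-H660.

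TNFRSF12A, the receptor for the cytokine TWEAK, was the member of the TNF receptor family that changed in both lines. It measured 7.18 and 7.19 CPM in C4-2B control and 19.5 and 21.2 CPM with MYCL, a log2 fold change of 1.51 ± 0.12 (edgeR adjusted p = 7.13e-05). With shCtrl it measured 8.33 and 11.8 CPM and with shMYCL 19.3 and 17.9 CPM, a log2 fold change of 0.88 ± 0.17 (edgeR adjusted p = 0.00162). It was therefore higher in the perturbed cells of both lines, whether MYCL had been raised or lowered. TNFRSF10B, the TRAIL receptor DR5, rose from 112 and 125 CPM to 187 and 205 CPM with MYCL (0.74 ± 0.08, edgeR adjusted p = 0.000298). In NCI-H660 it ranged from 21.0 to 29.8 CPM and was not called (0.30 ± 0.13). TNFRSF21 (DR6) was called in neither line, at -0.13 and 0.20.

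Of the 6 chemokines, CCL20 was the one tested in C4-2B, and CXCL2, CXCL3 and CXCL8 were tested in NCI-H660. CCL20, which attracts cells bearing CCR6, had 4 and 8 counts in C4-2B control and 153 and 173 counts with MYCL, or 0.130 and 0.355 CPM against 8.70 and 10.4 CPM. The log2 fold change was 5.36 ± 0.39 (edgeR adjusted p = 4.25e-05), and the mean CPM was 39.5-fold higher. The log2 fold change was 4.72 without control library 1 and 6.14 without control library 2. CCL20 had 3 and 2 counts with shCtrl and 0 and 1 count with shMYCL, so it was at the floor of NCI-H660, the line in which CXCL2, CXCL3 and CXCL8 were detected.

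CXCL2 and CXCL3 encode neutrophil attractants with near-identical sequences, so reads may have been split between them and CXCL1. In NCI-H660, CXCL2 fell from 22.1 and 18.4 CPM with shCtrl to 10.1 and 9.98 CPM with shMYCL (-1.01 ± 0.15, edgeR adjusted p = 0.000223). CXCL3 fell from 9.11 and 9.43 CPM to 4.92 and 5.32 CPM (-0.86 ± 0.20, edgeR adjusted p = 0.0053), and its adjusted p did not pass in a fit of all 4 groups, where the log2 fold change was again -0.86. Both genes had 0 counts in the C4-2B control libraries and at most 2 counts in a C4-2B MYCL library. CXCL8 stood at 362 and 353 CPM with shCtrl and 335 and 311 CPM with shMYCL, a log2 fold change of -0.15 ± 0.10 that did not pass the test. In C4-2B it had 0 counts in both control libraries and 10 and 1 counts with MYCL, too few for a test within that line.

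IL32, a cytokine that has no rodent counterpart and that induces TNF and interleukin-8 in myeloid cells, had 52 and 34 counts in C4-2B control and 372 and 360 counts with MYCL. These are 1.69 and 1.51 CPM against 21.2 and 21.7 CPM, a mean 13.4-fold higher, with a log2 fold change of 3.74 ± 0.16 (edgeR adjusted p = 3.91e-06). The libraries of each group were close together and far from those of the other. In NCI-H660, IL32 measured 24.6 and 27.6 CPM with shCtrl and 26.4 and 24.0 CPM with shMYCL, groups that overlapped (-0.06 ± 0.13, edgeR adjusted p = 0.78). In CPM both C4-2B MYCL libraries lay just under the lowest of the 4 NCI-H660 libraries. In TPM they lay farther below, at 35.8 and 35.5 against 66.9 and 69.1 with shCtrl and 71.6 and 61.2 with shMYCL. LIF, a cytokine of the interleukin-6 family, measured 0.909 and 0.710 CPM in C4-2B control and 2.05 and 1.27 CPM with MYCL (16 to 36 counts), a difference that did not pass the test (1.03 ± 0.44, edgeR adjusted p = 0.1). In NCI-H660 it ranged from 7.99 to 11.4 CPM, with no call.

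Of the 7 other targets, 4 rose in C4-2B and 0 were called in NCI-H660, where 2 had an unadjusted p under 0.05. TNFAIP2, a regulator of membrane protrusions, rose from 12.1 and 13.6 CPM to 26.6 and 26.5 CPM with MYCL (1.05 ± 0.11, edgeR adjusted p = 0.000194). In NCI-H660 it went from 43.0 and 48.2 CPM to 62.3 and 54.4 CPM, with a log2 fold change of 0.35 ± 0.12 under the fold minimum (edgeR adjusted p = 0.039). ICAM1, the adhesion molecule bound by leukocyte integrins, rose from 18.7 and 21.2 CPM to 32.8 and 28.5 CPM (0.63 ± 0.11, edgeR adjusted p = 0.00289), and a noncoding RNA on the opposite strand covers 23.6% of its exon bases. Whether counting used strand is not given in the sources used here.

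IER3, an immediate early regulator of cell survival, rose from 7 and 3 counts to 25 and 12 counts in C4-2B (2.51 ± 0.64, edgeR adjusted p = 0.0151). Its call was lost without control library 1 (2.95), control library 2 (2.22) or MYCL library 1 (1.96), and 32.6% of its exon bases overlap an antisense RNA. SAT1 rose from 98.0 and 88.8 CPM to 134 and 143 CPM (0.57 ± 0.08, edgeR adjusted p = 0.000848), and stood just under the fold minimum without control library 2 (0.499). The mitochondrial superoxide dismutase gene SOD2, a classic NF-kB target, did not pass the test in either line (-0.04 ± 0.08 and 0.02 ± 0.10). TNFAIP8, an apoptosis regulator, had log2 fold changes of -0.15 and -0.06. PTGS2, which encodes cyclooxygenase-2, had at most 6 counts in a C4-2B library and had 12 and 18 counts with shCtrl and 31 and 26 counts with shMYCL, which did not pass the test (1.13 ± 0.46, edgeR adjusted p = 0.0884).

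**Figure D3:**
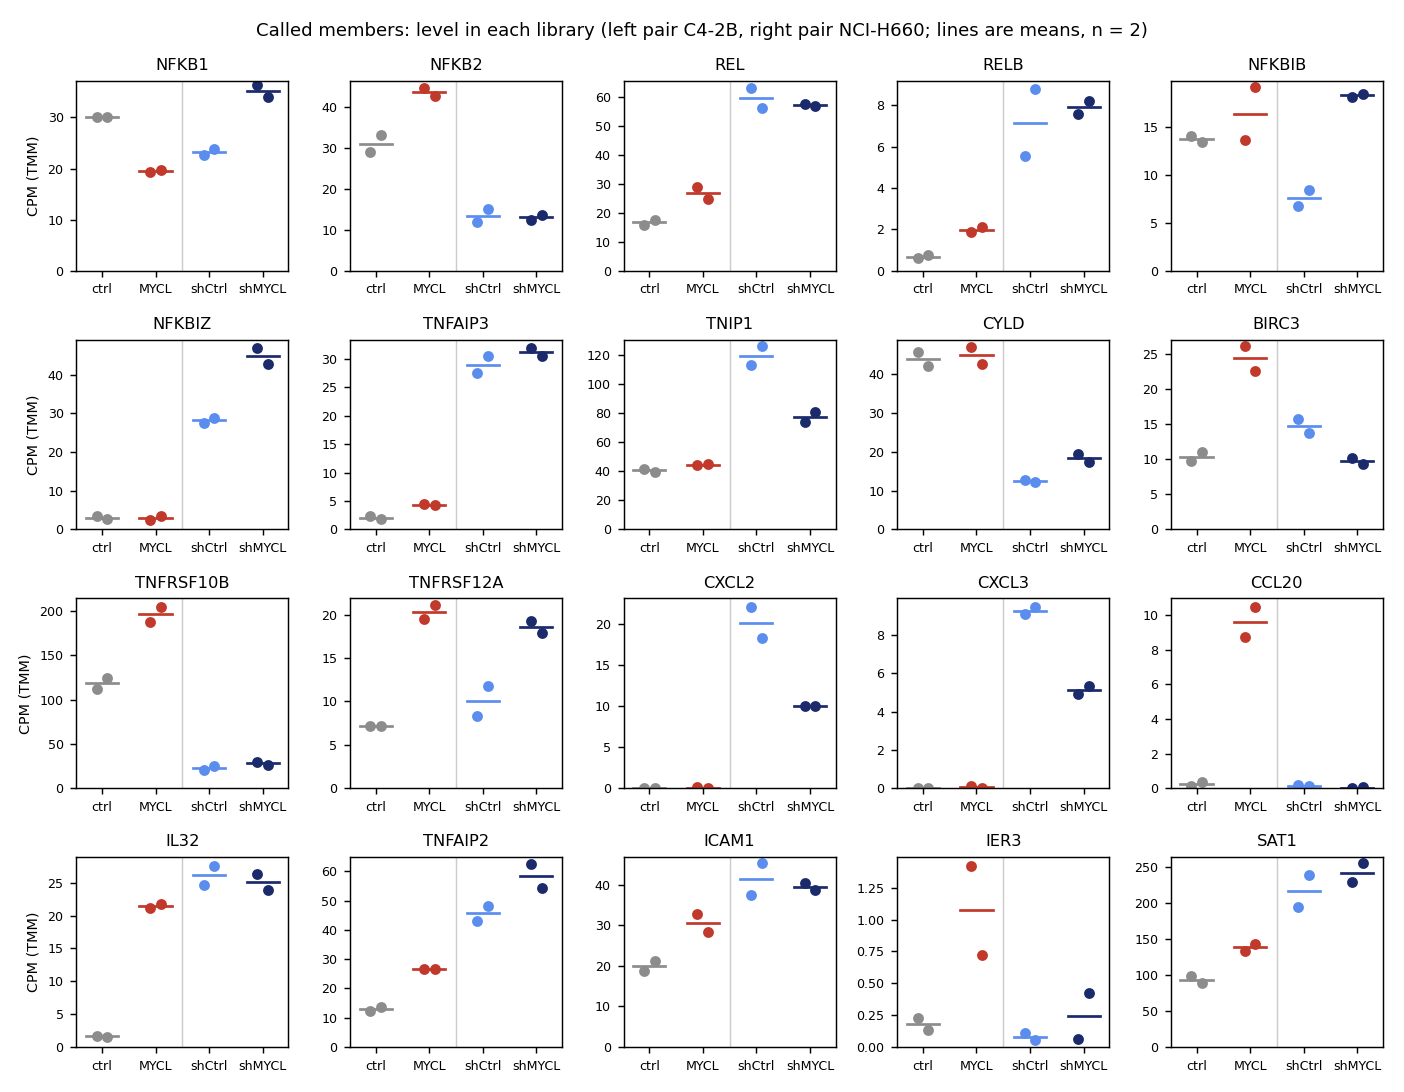
CPM in each library (points) and group mean (lines, n = 2) for the 20 genes called in at least 1 line, with C4-2B control and MYCL on the left and NCI-H660 shCtrl and shMYCL on the right of each panel, each vertical axis starting at 0. IL32 and CCL20 rise from near 0 with MYCL in C4-2B, CXCL2 and CXCL3 fall with shMYCL in NCI-H660, and TNFRSF12A rises in both lines.

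Whether the effect of MYCL differed between the lines was tested as an interaction, taking high against low MYCL in each line (MYCL against control in C4-2B, shCtrl against shMYCL in NCI-H660). The difference is signed, C4-2B minus NCI-H660, so a positive value can come from a rise with MYCL in C4-2B or from a rise after knockdown in NCI-H660. The step in MYCL was unequal. Its mean CPM was 303.5-fold higher in C4-2B MYCL than in control, but 8.35-fold lower with shMYCL than with shCtrl. The differences were not scaled for this, so cell line and size of the step cannot be told apart. Of 35 tested genes, 13 had a positive and 0 a negative difference that was called, with 18 at an unadjusted p under 0.05. TNIP1 had a difference of -0.496 ± 0.13 (edgeR adjusted p = 0.0179), just short of the minimum of 0.5. DESeq2 called 12 genes, and edgeR called 8 without C4-2B control library 1 and 8 without C4-2B MYCL library 1. Of all 19605 genes tested, 9.59% had a positive and 8.33% a negative difference that was called, and the median difference over the 35 genes was 0.62. IL32 had the lowest adjusted p of the 13, with a difference of 3.68 ± 0.20 on the log2 scale (edgeR adjusted p = 3.89e-07). For TNFRSF12A the difference was 2.38 ± 0.23, since the gene rose when MYCL was raised in one line and when it was lowered in the other. TNFAIP2 and TNFRSF10B differed by 1.40 and 1.03. NFKBIB and CYLD differed by 1.52 and 0.59, and were called within NCI-H660 and not within C4-2B. The effect on BIRC3, which moved with MYCL in both lines, was larger in C4-2B by 0.64, a call that DESeq2 did not make. NFKB1, which moved against MYCL in both, had a difference of -0.03 ± 0.15 and was not called. CXCL8 was called on 0 and 0 counts in C4-2B control against 10 and 1 with MYCL, and its fitted difference is no bound. CCL20, which had at most 3 counts in an NCI-H660 library, was not called (3.43 ± 2.04, edgeR adjusted p = 0.273).

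The control cells of the 2 lines were compared last, to place these changes beside the distance between the lines. This comparison shares its C4-2B control libraries with the overexpression comparison and its shCtrl libraries with the knockdown comparison. With a fold minimum of 1 on the log2 scale, 18 of 35 tested genes were higher in NCI-H660 and 4 were lower, beside 29.1% and 25.5% of all genes tested. The median log2 fold change was 1.05 over the 35 genes and 0.03 over all genes. Of the chemokines, CXCL8 was at least 3101-fold higher, CXCL2 at least 175-fold and CXCL3 at least 80.5-fold, against the 3 counts that a count of 0 allows in a C4-2B library. TRAF1 was higher by 5.44 ± 0.43, or by 4.82 and 6.21 without C4-2B control library 1 or 2. IL32 was higher by 4.02 ± 0.16, TNFAIP3 by 3.78 ± 0.16, LIF by 3.56 ± 0.31, RELB by 3.39 ± 0.32 and NFKBIZ by 3.19 ± 0.16.

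The genes with a smaller excess in NCI-H660 were REL (1.83), TNFAIP2 (1.83), SOD2 (1.63), TNIP1 (1.56), NFKBIA (1.38), SAT1 (1.21), ICAM1 (1.06) and RIPK2 (1.05). PTGS2 was higher by 2.69, from 0 and 6 counts against 12 and 18. ICAM1 fell under the fold minimum without C4-2B control library 1 (0.97) or shCtrl library 2 (0.93), RIPK2 without C4-2B control library 2 (0.97) or shCtrl library 1 (0.90), and PTGS2 was not called without C4-2B control library 1 (1.56) or shCtrl library 2 (2.44). Without C4-2B control library 2, which leaves a lone control library at 0 counts, PTGS2 had a fitted value of 6.95, which is no bound. Higher in C4-2B control were TNFRSF10B (-2.37), TNFAIP8 (-1.95), CYLD (-1.81) and NFKB2 (-1.20). On log2(TPM + 1) the median of all genes stood at 0.52 between the lines, and NFKB2 was not called lower there.

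A further 75 genes of the pathway, covering receptors, kinases, adaptors and other cytokines, were read in the same fits. In C4-2B, 9 of 56 tested genes rose with MYCL (16.1%, beside 11.8% of all genes) and 2 fell (3.57%, beside 8.12%), with a median of 0.11. The 8 with the lowest adjusted p were GADD45B (2.72), MAP3K14 (1.16), TNF (3.35), TNFSF10 (2.83), RBCK1 (0.68), NFKBIL1 (1.26), TNFRSF1A (0.59) and MYD88 (-0.63). TNF itself, the founding ligand of the pathway, went from 10 and 7 counts to 61 and 51 counts, a log2 fold change of 3.35 ± 0.40 (edgeR adjusted p = 0.000418). TNFSF10, the ligand TRAIL whose receptor TNFRSF10B also rose, went from 19 and 30 counts to 115 and 115 counts. MAP3K14 encodes NIK, the kinase of the noncanonical branch to which RELB and NFKB2 belong, and measured 8.28 and 10.2 CPM in control and 21.4 and 19.5 CPM with MYCL.

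In NCI-H660, 6 of 62 tested genes of this wider group rose after knockdown and 6 fell (9.68% each, beside 7.18% and 8.99% of all genes), with a median of 0.06. These shares were near those of all genes. Those with the lowest adjusted p were TRAF3 (1.02), MAP3K14 (0.86), LIFR (-0.68), IRAK1 (0.64), IL6R (1.43), LTB (-1.10), OTULIN (0.52) and FAS (-1.25). MAP3K14 measured 13.4 and 14.4 CPM with shCtrl and 24.4 and 26.3 CPM with shMYCL. Its RNA, like that of TNFRSF12A, was thus higher in the perturbed cells of both lines, and NIK protein was not measured. TRAF3, whose product directs NIK to degradation, rose beside MAP3K14. LTB, the lymphotoxin-beta ligand of the noncanonical branch, fell from 142 and 159 counts to 69 and 53 counts, and the death receptor FAS fell from 97 and 119 counts to 37 and 42 counts.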

How the data were processed

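Poly(A)-selected paired-end RNA-seq libraries of C4-2B and NCI-H660 cells were analysed, 8 in all and 2 per group, grouped by the sample titles. The authors deposited gene-level estimated counts, without normalization between libraries, which were rounded because 34.4% of the values above 0 had a fractional part. The authors also deposited TPM values, in which counts are corrected for gene length and brought to a fixed sum per library, for 65535 genes. The build is hg38 per the submitters' processing notes, and the aligner and counter are not given in the sources used here. The tables held 0 columns of other samples.

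The 2 lines were fitted separately by the quasi-likelihood method of edgeR 4.0.16 (R 4.3.3), after TMM normalization and filterByExpr, with Benjamini-Hochberg adjustment over all genes tested. The difference between the lines and the comparison of control cells used a fit of all 4 groups. A call required an adjusted p below 0.05 together with a log2 fold change of 0.5 or more in size, or 1 between lines. Standard errors came from the fold change and test statistic. Replicates varied with a biological coefficient of 0.083 for C4-2B and 0.097 for NCI-H660. A count of 0 was taken to allow up to 3 counts, which covers counting error only. Library totals limit precision for genes with few counts.

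All 40 genes were accounted for, with per-library values for each gene called within a line and for IL32 and the chemokines with at least 10 counts in a library. Of the 75 further pathway genes, the 8 called genes with the lowest adjusted p in each line were named. The genes, marker lists and tests were chosen with earlier results of these data known. Gene positions and exon overlaps came from GENCODE 44. Replicate libraries differed by more than sampling noise, with a chi-square per gene from 5.13 to 12.8, so none was taken for a repeated library. The alternatives comprised DESeq2 1.42.0, size factors from relative log expression, other filters, a replicate block, all 4 groups in one fit, limma 3.58.1 on log2(TPM + 1) or log2(TPM + 0.1), other fold minimums and leaving out each library. Scripts were tested on simulated data. Python 3.11.15 with pandas 2.3.3 handled tables.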

Additional observations from a re-analysis of the deposited data

Results flagged for a closer look

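For 13 genes the effect of high against low MYCL differed between C4-2B and NCI-H660 by edgeR's quasi-likelihood test of the interaction. The differences were not scaled for the larger change of MYCL itself in C4-2B. The difference on the log2 scale, C4-2B minus NCI-H660, was 3.68 for IL32, 2.38 for TNFRSF12A, 1.69 for RELB, 1.52 for NFKBIB, 1.40 for TNFAIP2, 1.16 for TNFAIP3, 1.03 for TNFRSF10B, 0.73 for SAT1, 0.64 for BIRC3, 0.62 for REL, 0.59 for CYLD and 0.55 for ICAM1. CXCL8 had a fitted difference of 5.55, which rests on 10 and 1 counts in C4-2B MYCL against 0 and 0 in control. IL32, TNFRSF12A, NFKBIB, TNFAIP2, TNFRSF10B and SAT1 were called under every alternative that gave a value.

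The calls for the other genes depended on single libraries or on the scale. Left-out libraries that ended the call of CXCL8 were C4-2B control 1 (5.42), C4-2B control 2 (5.53) and C4-2B MYCL 1 (3.28), while without C4-2B MYCL 2 the fitted value was 6.404. REL was not called without C4-2B control 1 (0.53), C4-2B MYCL 1 (0.51) or shMYCL 1 (0.60), and RELB was not called without C4-2B control 1 (1.53) or shCtrl 1 (1.38). For CYLD the libraries were C4-2B control 2 (0.54), C4-2B MYCL 1 (0.53), shCtrl 2 (0.55) and shMYCL 1 (0.499). For ICAM1 they were C4-2B control 1 (0.45), C4-2B MYCL 1 (0.46), shCtrl 1 (0.41), shMYCL 1 (0.51) and shMYCL 2 (0.57). For BIRC3 they were C4-2B control 1 (0.54), C4-2B control 2 (0.73), C4-2B MYCL 1 (0.54), shCtrl 2 (0.53), shMYCL 1 (0.56) and shMYCL 2 (0.70). TNFAIP3 was called with each library left out in turn but not on the TPM scale.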

How the results depend on the processing

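Of 58 single-gene results, 30 were called under every alternative that gave a value. Over 808 such values, 718 kept the call, 90 lost it and 0 changed direction. In C4-2B, 13 genes rose and 1 fell by the main test. On log2(TPM + 1) and log2(TPM + 0.1) 6 rose, on log2(TPM + 1) without a filter 5 rose, and with a fold minimum of 1 there were 8 rises and 0 falls. In NCI-H660, 5 rose and 4 fell, but 0 and 0 on log2(TPM + 1) without a filter and 1 and 1 with a fold minimum of 1. The differences between the lines numbered 13, and 8 on log2(TPM + 0.1). Between control cells 4 genes were lower in NCI-H660, and 7 with no fold minimum. Of the wider genes, 11 were called in C4-2B, but 6 without a TPM filter, 18 with no fold minimum and 7 with a minimum of 1. In NCI-H660 the wider genes numbered 12, and 0, 21 and 5 under those settings. The cause of these changes was not tested, except that the fold minimum acts by construction.

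Leaving out 1 library gave 10 to 12 rises in C4-2B and 8 to 13 differences between the lines, with the 8 from leaving out C4-2B control 1 or C4-2B MYCL 1. In NCI-H660 it gave 4 to 7 rises and 3 to 4 falls, between control cells 16 to 18 higher and 4 to 5 lower, and in the wider genes 12 to 13 and 10 to 16 calls. An arm with 1 library was assumed to vary like the others. The labels give the groups the same replicate numbers. Over 19605 genes, the deviations of same-numbered libraries correlated at 0.03 in C4-2B and 0.02 in NCI-H660. Counting noise in genes with few counts lowers such a correlation, so it cannot exclude that same-numbered libraries shared a batch. With the replicate block 13 genes rose and 1 fell in C4-2B, 5 rose and 4 fell in NCI-H660, and 13 differed between the lines. Depth limits what could be detected in genes such as IER3, RELB and LIF, which had between 3 and 36 counts in a C4-2B library.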
